A study of Mus musculus with 195 samples.

Results

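Neural stem cells (NSC) in culture are described here as a single population, by the genes they expressed and by how single cells differed from one another. The members are the cells whose label marks them as NSC and that the authors kept in their table of molecules per gene. These were 41 of 48 sorted NSC, and 41 of the 107 cells of that table. Of the NSC kept, 21 came from library batch 1 and 20 from library batch 2. The kept cell with fewest molecules on genes had 1234 molecules and the cell with most that was not kept had 961, on either side of a limit of 1000.

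All cells descend from 46C, a mouse embryonic stem cell line that carries GFP in the Sox1 locus and was derived from E14tg2a. NSC were made from it by monolayer differentiation in medium with N2 and B27, sorting of GFP-positive cells and growth on laminin with EGF and bFGF. Before lysis, cells were stained with Hoechst and small cells in G0/G1 were sorted into wells. The embryonic stem cells set beside them carry the same reporter and were also sorted for small cells in G0/G1. They were grown either with 1 µM PD0325901, 3 µM CHIR99021 and 10 ng/ml LIF (ESC-2i, 33 kept cells) or with 10% FBS and 10 ng/ml LIF (ESC-FCS, 33 kept cells). The labels name no replicate culture, so NSC are 1 culture of 1 line: levels in different populations and batches are set side by side without a test, and n counts cells of that culture.

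Neural stem cells divide in response to EGF and FGF and can give rise to neurons, astrocytes and oligodendrocytes. They share many genes with radial glia, the progenitors of the developing brain, among them the fatty acid binding protein Fabp7 and the intermediate filaments Nes and Vim. Lines grown with EGF and FGF are also known to express Olig1 and Olig2, transcription factors of the oligodendrocyte lineage.

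In BATSeq an oligo-dT primer with a cell barcode and a unique molecular identifier (UMI) marks each polyadenylated transcript at its 3′ end, and UMIs are counted as molecules, so that a transcript gives 1 count whatever its length. The 41 NSC held 151877 molecules on 12484 genes. A cell had from 1234 to 9037 molecules (median 3282) on 904 to 3523 genes (median 1841), and cells of batch 1 and batch 2 had medians of 3390 and 3186. The median ESC-2i cell had 10864 molecules and the median ESC-FCS cell 6375, so low genes are seen in fewer NSC at the same level. Both libraries used the same 24 cell barcodes and were told apart by a batch barcode, and neighbouring wells were pooled early. No doublet caller was run on these sorted wells. A level is given per 10000 molecules that lie on genes and is pooled over cells, with a 95% exact Poisson interval in brackets that covers counting error only.

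The markers were chosen with earlier results of these data known, so their levels describe the culture and do not test its label. All 5 markers, Fabp7, Vim, Olig1, Olig2 and Nes, were at higher levels in NSC than in both embryonic populations. Of the 2755 genes with at least 50 molecules over all cells, 34.7% were higher in NSC than in both. A gene can pass that limit through the population where it is high, here and for the lists below. Together the markers had 720 molecules, a level of 47.4 (44.0 to 51.0), against 1.85 in ESC-2i and 1.01 in ESC-FCS. The sum was between 9.71 and 157 in single NSC with a median of 44.4, and it was 49.4 in batch 1 and 45.2 in batch 2.

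The 3′ ends of the 5 markers are shown because each count rests on reads that stop there. The lines give the final 30 bases of the GENCODE M21 transcript (GRCm38, plus strand in all 5 cases) whose annotated end is nearest to the most used site, with the polyadenylation hexamer AATAAA in capitals.
Fabp7: aaaccaaattgaAATAAAaaatacacacac
Vim: tgttactgcttcAATAAAtcttcaaaaata
Olig1: aaatcacaaAATAAAacgtcaacagttgaa
Olig2: tgttgagattttaAATAAAatttaaagcaa
Nes: ccttgAATAAAgctgtatccctacctacaa
Only the transcribed strand was searched. This hexamer was found in all 5 ends and in 35.5% of the last 30 bases of 58793 protein-coding transcripts. Fabp7 molecules ended mostly at chr10:57788449, 1 nt from the annotated end, with 349 of 376 molecules (92.8%). Vim ended mostly at position 13582815 of chromosome 2, with 116 of 130 molecules. Olig1 and Olig2 lie on chromosome 16 and ended mostly at 91271928 (90 of 93 molecules) and 91228674 (69 of 74). Nes was the most spread, with 33 of 47 molecules at position 87980444 of chromosome 3 and 8 sites in all.

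Fabp7 (ENSMUSG00000019874), which binds long-chain fatty acids in radial glia, was the leading marker, with 376 molecules and a level of 24.8 (22.3 to 27.4). It was seen in 40 of 41 NSC, at 0 to 121 per 10000 with a median of 16.9. A single molecule was seen in each embryonic population. Nearly every NSC thus had the gene, at levels that spanned a wide range.

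Vim, the intermediate filament vimentin, had 130 molecules in 34 NSC, a level of 8.56 (7.15 to 10.2), with single cells at 0 to 23.3 and a median of 6.23. Its level was 1.60 in ESC-2i and 0.794 in ESC-FCS, so among the 5 markers it was the one most seen in embryonic cells. Nes (nestin, ENSMUSG00000004891) was the lowest of the 5, with 47 molecules in 30 NSC at 0 to 8.10 per 10000 (median 3.79).

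Olig1 had 93 molecules in 30 NSC, a level of 6.12 (4.94 to 7.50), with single cells at 0 to 25.6 and a median of 4.58. Its level was 8.02 in batch 1 and 4.02 in batch 2. Olig2 had 74 molecules in 27 NSC, a level of 4.87 (3.83 to 6.12), with single cells at 0 to 23.3 and a median of 4.60. Its level was 4.76 in batch 1 and 4.99 in batch 2, without the gap seen for Olig1.

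The share of NSC with a molecule of a marker was lower once cells were set to equal depth. Fabp7 was seen in 97.6% of NSC (exact Clopper-Pearson interval 87.1 to 99.9%), and the share expected with every cell thinned to 1000 molecules was 79.8%. The thinned share was 51.0% for Vim, 40.8% for Olig1, 37.2% for Olig2 and 32.5% for Nes. In ESC-2i the thinned share was 0.435% for Fabp7, 0.271% for Olig1, 0.202% for Olig2 and 1.36% for Nes. It was 13.8% for Vim, which ESC-2i also had, so that share is no background for Vim.

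**Figure D1:**
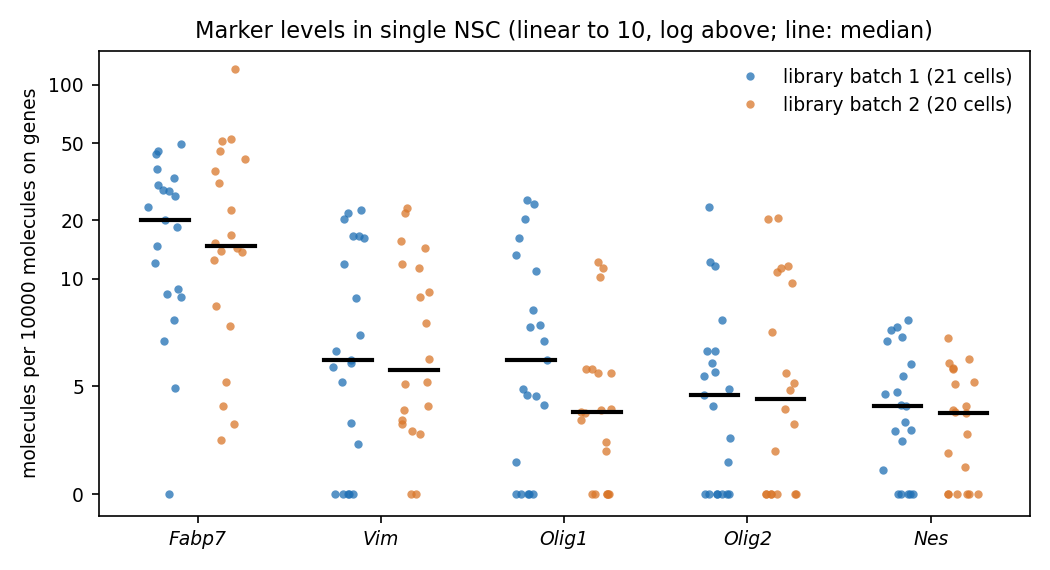
Level of the 5 markers in each NSC, in molecules per 10000 molecules on genes on an axis that is linear to 10 and logarithmic above, with library batch 1 in blue, batch 2 in orange and a black line at the median of each batch. Fabp7 reached 121 in a cell of batch 2, and cells at 0 were seen for all 5 genes.

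Genes of neural stem cells and radial glia were broadly present. Of 32 listed genes 31 were in the table and 30 were seen in NSC, the exception being Pax6, a transcription factor of dorsal progenitors. Of the 13 with at least 50 molecules over all cells, 12 were higher in NSC than in both embryonic populations. Members with fewer molecules are not in this count. The list had a level of 106 (101 to 111), against 11.5 in ESC-2i and 12.4 in ESC-FCS.

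After Fabp7 the list was led by Dbi, a binding protein of acyl-CoA, with 259 molecules (17.1 per 10000, 15.0 to 19.3). It was followed by Lgals1, a galectin, with 180 molecules (11.9, 10.2 to 13.7), Vim, and Tnc, the matrix protein tenascin C, with 73 molecules. Tnc was not seen among 368363 molecules of ESC-2i or 226684 of ESC-FCS, where a count of 0 allows levels up to 0.0814 and 0.132. Sox2 and Sox9, transcription factors of neural progenitors, had 17 and 10 molecules, and Sox2 was not higher than in embryonic cells (1.12 against 1.63 and 2.29).

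Of the secreted and matrix genes of glia, which include Dbi and Tnc, 8 of 9 members of at least 50 molecules were higher in NSC than in both embryonic populations. Their summed level was 51.0 (47.4 to 54.7), against 10.6 and 8.03. Ptn (pleiotrophin, a growth factor) had 118 molecules in 32 NSC, at 0 to 24.2 per 10000 with a median of 5.22, and 0 and 2 molecules in ESC-2i and ESC-FCS. Bcan (brevican) had 71 molecules and Sparc, a collagen-binding protein, had 64. Sparc was also seen in ESC-2i, at 2.52 against 4.21 in NSC.

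The signature of mature astrocytes was partial. Gfap, Aldh1l1, Clu and Id4 had no molecule in the 41 NSC, which allows a pooled level of up to 0.198 per 10000, and Aqp4, S100b and Slc1a2 were not among the genes of the table. The list's level of 26.6 (24.1 to 29.3) came mostly from Aldoc, an aldolase of glia, with 235 of 404 molecules. The embryonic levels of 16.0 and 21.8 came largely from Apoe, with 379 and 283 molecules there and 3 in NSC.

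Aldoc was seen in 39 NSC at 0 to 35.8 per 10000 (median 13.7), a level of 15.5 (13.6 to 17.6) against 0.652 in ESC-2i and 0.485 in ESC-FCS. Cst3 (cystatin C, an inhibitor of cysteine proteases), Glul (glutamine synthetase), Id3 (an inhibitor of bHLH transcription factors) and Ndrg2 followed with 46, 38, 37 and 20 molecules. All of these were also seen in both embryonic populations, Cst3 and Glul at 1.03 to 2.74 per 10000.

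Past Olig1 and Olig2, few molecules of oligodendrocyte lineage genes were seen. The list's 206 molecules (13.6 per 10000, 11.8 to 15.5) included the 93 of Olig1 and 74 of Olig2. Cnp, an enzyme of myelin, had 18 molecules, Cspg5 and C1ql1 had 5 each, and Pdgfra, the receptor of oligodendrocyte precursors, had 4. Mbp, Sox10 and Mobp had none.

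Neuronal genes were sparse apart from Map2, which encodes a microtubule-associated protein. Map2 had 59 of the list's 86 molecules, in 26 NSC, with levels of 5.51 in batch 1 and 2.08 in batch 2. Ina, an intermediate filament, had 8 molecules, Tubb3 had 5, Nefl had 4, Syt1 had 3 and Dcx had 2, while Stmn2 had none.

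Few molecules of pluripotency genes were seen. Of 21 genes 16 had no molecule in NSC, among them Nanog, Pou5f1, Zfp42 and Tfcp2l1, of which Tfcp2l1 had 318 molecules in ESC-2i. Pou5f1 has near-identical copies in the genome, and reads with several alignments were removed. It may therefore be undercounted in all cells, which was not tested. Trim28, a corepressor used in many cell types, held 85 of the 89 molecules seen, and Esrrb, Klf2, Klf4 and Dppa3 had 1 each. Of the 15 with at least 50 molecules, 14 were below both embryonic populations, where 44.1% of such genes were. Genes of other lineages had 9 molecules in all, of which Twist1 had 4.

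Genes induced by EGF and FGF signalling, the factors in the medium, had a level of 36.0 (33.0 to 39.1), against 8.04 in ESC-2i and 9.31 in ESC-FCS. Of 7 members with at least 50 molecules, 6 were higher in NSC than in both. Egr1, an immediate early transcription factor, had 104 molecules in 36 NSC (6.85 per 10000, 5.60 to 8.30), against 2 and 4 molecules in the embryonic populations.

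Etv5, an ETS factor downstream of FGF, had 98 molecules in 33 NSC, and Dusp6, a phosphatase that restrains ERK, had 74 in 23 NSC. Etv1 and Fos had 46 molecules each. Fos had 12 of its molecules in batch 1 and 34 in batch 2. Myc had 27 molecules in 16 NSC, at 0 to 13.3 per 10000, and none in either embryonic population.

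Targets of Notch and BMP signals had a level of 8.16 (6.79 to 9.73), against 1.85 in ESC-2i and 5.34 in ESC-FCS. After Id3 they were led by Hes6 with 18 molecules, Jag1 with 15, Hes5 with 11 and Hey1 with 8. Genes of the G1 cyclins and their kinases had a level of 22.6 (20.3 to 25.1), against 17.5 and 15.3, and 215 of their 343 molecules were Cdk4, a kinase of G1. Ccnd2, a D-type cyclin, had 44 molecules in 23 NSC and none in embryonic cells, whereas Ccnd1 and Ccnd3 had 32 and 20. Cdkn2a followed with 8.

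**Figure D2:**
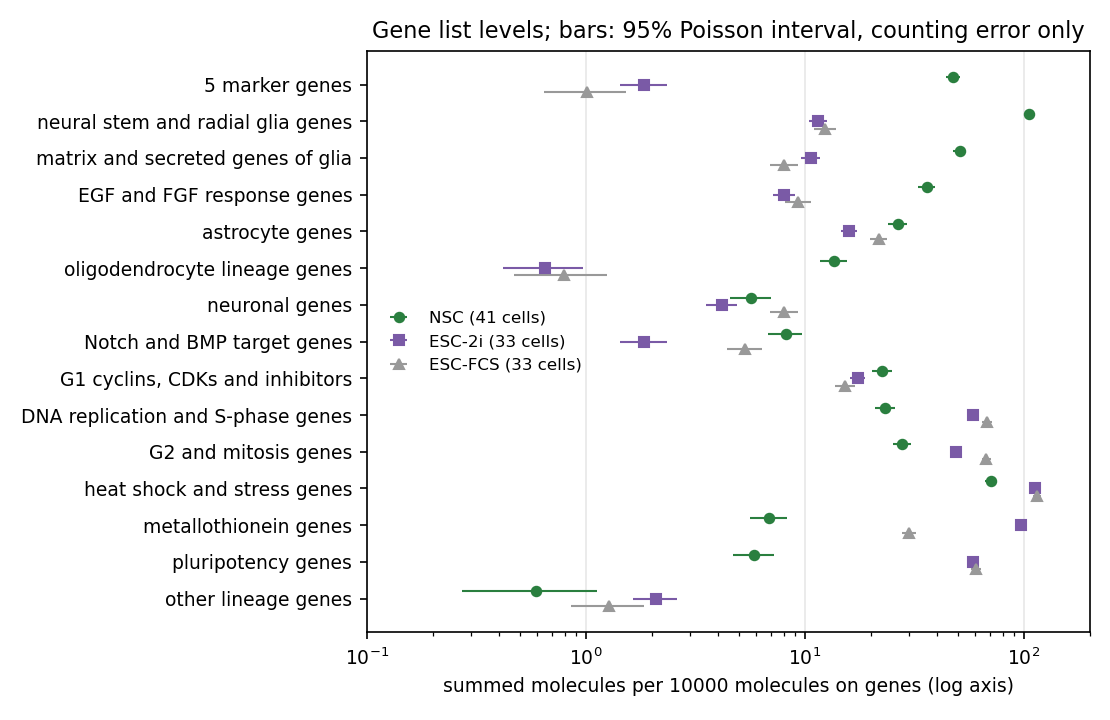
Summed level of 15 gene lists in NSC (green circles), ESC-2i (purple squares) and ESC-FCS (grey triangles), in molecules per 10000 molecules on genes on a log axis, with 95% Poisson intervals for counting error. The 5 marker genes stand at 47.4 in NSC and below 2 in both embryonic populations, and pluripotency genes at 5.86 against 58.4 and 60.7.

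Genes of general metabolism and structure completed the profile. Outside the mitochondrial genome and the ribosomal proteins, the genes with most molecules were Npm1 (nucleophosmin) with 876, Rack1 with 758, Ckb with 721, Actb with 651, Tmsb4x (thymosin beta 4) with 489, Scd2 with 434 and Eef1a1 with 433. The other 3 of the leading 10 are the processed pseudogenes Gm10036 and Gm2830 and the small nucleolar RNA Snora68, with 523, 474 and 418 molecules. Such short or copied genes can share reads with a parent or host gene, so their identity is uncertain.

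Ckb, the creatine kinase of brain, was seen in all 41 NSC at a level of 47.5 (44.1 to 51.1), against 4.34 in ESC-2i and 3.04 in ESC-FCS. Scd2, a desaturase of fatty acids, had a level of 28.6 (26.0 to 31.4), against 5.19 and 3.79. Tmsb4x was at 32.2 against 2.42 and 10.0.

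Cytoskeleton genes, led by Actb, Tmsb4x, Cfl1, Tubb5 and Marcks, had a level of 145 in NSC, and 9 of 16 members with at least 50 molecules were above both embryonic populations while 6 were below. Heat shock and stress genes, led by Hsp90ab1, Hspe1, Hsp90aa1, Hspd1 and Atf4, had a level of 70.9 against 112 and 115. Metallothionein Mt1 had 99 molecules in NSC, a level of 6.52 against 64.0 and 17.9, with Mt2 at 5 molecules and Mt3 at 0. Cytosolic ribosomal proteins, led by Rpl13, Rpl8, Rps20, Rpsa and Rpl32, took 11.8% of molecules in the median NSC, 18.2% in ESC-2i and 19.4% in ESC-FCS. The mitochondrial genome took 4.75% in the median NSC, 1.71% in ESC-2i and 1.57% in ESC-FCS. Leaving its genes out of the denominator raised the level of the 5 markers from 47.4 to 49.9.

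Cycling genes were lower in NSC than in embryonic cells, which were also sorted for G0/G1. The study's text does not state whether the gates were equal, and their part in this difference was not tested. DNA replication and S-phase genes had 353 molecules on 34 of 35 genes, a level of 23.2 (20.9 to 25.8), against 58.3 in ESC-2i and 67.9 in ESC-FCS. Of 26 members with at least 50 molecules, 25 were below both. G2 and mitosis genes had a level of 27.9 (25.3 to 30.6), against 48.9 and 67.5, and 18 of 20 such members were below both.

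The S-phase list was led by Mcm2 with 46 molecules, Mcm7 with 26, Pcna with 24, Mcm5 with 21 and Prim1 with 18. Mcm2, Mcm5 and Mcm7 are subunits of the replicative helicase, Pcna is the sliding clamp and Prim1 a primase subunit. The G2 and mitosis list rested on the histone variant H2afz, with 229 of 423 molecules in 39 NSC, which is also expressed outside mitosis. Without it, the list had 194 molecules, led by H2afx with 20, Top2a with 18, Tubb4b with 16 and Ube2c with 15.

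S-phase molecules were concentrated in few NSC. The level of the S-phase list in a cell was 2.84 to 97.0 with a median of 12.2, and 7 NSC were above 40 while 17 were below 10. Of those 7 cells, 4 came from batch 1 and 3 from batch 2. The highest was the cell of well D6, with 64 S-phase molecules, 8 of them Mcm2, together with 4 molecules of Mki67 and 6 of Top2a.

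Mki67, a marker of dividing cells, had 11 molecules in 7 NSC, and Top2a, a topoisomerase of G2 and mitosis, had 18 in 6. One or both were seen in 10 NSC, 5 in each batch. In those cells the S-phase list was at 5.15 to 97.0 (median 43.0), and in the other 31 at 2.84 to 80.9 (median 11.4), so the ranges overlapped. The cells with these molecules were also deeper, with a median of 3948 molecules against 2777, and the part of depth in this difference was not tested. Ccnb1, the mitotic cyclin, had 1 molecule.

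Cell-to-cell variation was tested within the culture, taking cells as units. The squared coefficient of variation (CV2) of each gene's normalized counts was compared with technical noise fitted on ERCC spike-ins plus a biological CV2 of 0.25, with a chi-square test and Benjamini-Hochberg adjustment over all genes of normalized mean above 0.5. Of 1157 genes tested in NSC, 124 were variable at an adjusted p below 0.1 (10.7%), and 196 had an unadjusted p below 0.05. In batch 1 alone 84 of 1212 genes were called (6.93%) and in batch 2 alone 33 of 1172 (2.82%). In ESC-2i and ESC-FCS the shares were 0.608% and 3.36%. These shares come from separate fits at other depths, and no test compares them.

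The number of calls rested on the noise fit, which gave NSC a noise term of 0.998, below the 1.08 of Poisson sampling. With that term held at the Poisson value 86 genes were called, with antisense spike-in molecules counted 25, with spike-ins of mean at least 0.5 in the fit 46, and with all spike-in species 80. When single cells were left out in turn, calls numbered 20 to 162, the lowest without the cell of well G2 and the highest without that of F2. The cell of well C6, one of the deepest with 6690 molecules, held the highest count of 31 called genes (25% of called and 8.90% of tested genes), and without it 104 genes were called.

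A set of 16 genes depended less on these choices. They were called in the fit above, in all 4 other noise fits and in a refit without the cell with most of their molecules. These were Tnc, Cst3, Akap12, Neat1, Fabp7, Dusp6, Enah, Mtss1l, Oxr1, Hmgcs1, Id3, Nudt4 and Gm26917, and from the mitochondrial genome mt-Co1, mt-Tf and mt-Tg. Only 10 of them were called in every refit that left out 1 cell. Neat1, Enah, Mtss1l, Nudt4, Gm26917 and mt-Tg were not. The cell with most molecules was not always the cell with the highest level. By level, Neat1 (30.7) and Mtss1l (40.9) were highest in E5, and Enah (32.4) and Gm26917 (64.8) in D1. For these genes, the refit without the cell with most molecules kept that highest cell. All 16 were also called when variance was taken within library batches, where 113 genes were called in all. The 25 genes called with antisense spike-in molecules counted were those called in all 4 other noise fits, so these fits act as 1 limit. With size factors from total molecules, Hmgcs1 and Gm26917 had adjusted p of 0.125 and 0.266 and were no longer called.

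**Figure D3:**
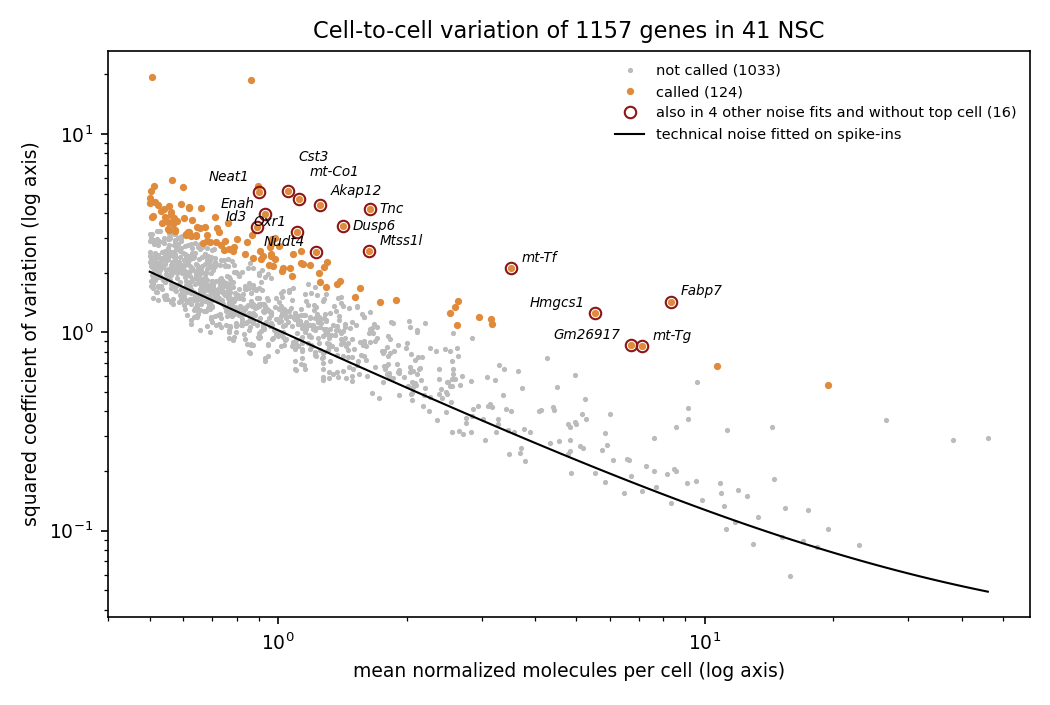
CV2 against mean normalized molecules per cell for the 1157 genes tested in 41 NSC, on log axes, with the technical noise fitted on spike-ins as a line. Called genes are orange. The 16 genes called under all noise fits and without the cell with most of their molecules are ringed and named.

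Fabp7 was the gene of the set with most molecules. Its CV2 was 1.43 against a technical 0.148, with an adjusted p of 2.38e-11 in the test of variation across 41 cells. By molecules the highest cells were those of wells F4 with 50 and B6 with 41, and by level F4 (121) and G1 (52.3). The lowest, D2 of batch 1, had 0 among 3209 molecules. Without F4 the adjusted p was 0.0400. In batch 2 alone it was 4.47e-08, and in batch 1 alone 0.384.

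Tnc had the lowest adjusted p outside the mitochondrial genome, 1.50e-18, with a CV2 of 4.18 against a technical 0.637. Its 73 molecules lay in 25 NSC, 16 of them in the cell of well F2 and 11 in the next, with levels of 0 to 62.5 and a median of 2.42. The batches had close levels, 4.76 and 4.85, and Tnc was called in each of them alone (adjusted p of 0.000183 and 6.42e-20).

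Cst3 was seen in 17 NSC with 46 molecules, 11 in the cell of well F4 and 6 in the next, so that most cells had none. Its CV2 was 5.19 against 0.972 (adjusted p 1.63e-15), and it was called in both batches alone, with levels of 2.13 in batch 1 and 4.02 in batch 2. Id3 had 37 molecules in 16 NSC and at most 5 in a cell, with a CV2 of 3.38 against 1.15 (adjusted p 7.18e-05).

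Dusp6 was at 0 to 41.4 per 10000 with a median of 1.52. Its highest cell, F3, held 22 of the 74 molecules, and the next 8. The CV2 was 3.43 against 0.732 (adjusted p 6.00e-11, and 0.00068 without F3), and both batches alone gave a call. Of the 7 EGF and FGF response genes tested it was the only one called, near the 10.7% called over all genes tested. Egr1 and Etv5 had adjusted p of 0.681 and 0.795.

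Hmgcs1, an enzyme at the start of cholesterol synthesis, had 241 molecules in 37 NSC, at 0 to 58.1 per 10000 with a median of 12.0. By molecules the cells of wells C6 and F4 were highest with 26 and 24, and by level those of F4 and A4 with 58.1 and 58.0. Its CV2 was 1.25 against 0.208 (adjusted p 2.06e-06). NSC had a level of 15.9 (13.9 to 18.0), against 4.78 in ESC-2i and 2.38 in ESC-FCS.

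Akap12, a scaffold of protein kinase A, had 59 molecules in 20 NSC, of which 18 were in C6 and 6 in the next cell. Neat1, the long noncoding RNA of paraspeckles, had 32 molecules in 16 NSC and at most 7 in a cell. Enah, a regulator of actin filaments, had 37 molecules in 21 NSC. Mtss1l had 78 in 26 and Oxr1 had 47 in 19, at levels of 4.39 in batch 1 and 1.66 in batch 2 for Oxr1. Nudt4, a hydrolase of diphosphoinositol phosphates, had 55 in 23. Gm26917 is annotated as noncoding RNA, and its most used site lies past its annotated end, so that its 298 molecules may belong to another transcript.

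The other 7 of the 20 named genes were called without the cell with most of their molecules and in 3 of the 4 other noise fits. They were the adhesion protein Pcdh9, the protease Plat, Trir, Mcm2, the tetraspanin Cd81, the small GTPase Rhoq, and Ptn, with 21 to 118 molecules and adjusted p of 0.000358 to 0.00367. Plat was not seen in either embryonic population, and Rhoq had 1 and 7 molecules there against 56 in NSC. None of the 7 genes was called in every refit that left out 1 cell. By level, Plat (16.2), Trir (24.3) and Cd81 (24.3) were highest in D1, a cell with 1234 molecules. For these genes D1 was not the cell left out. Pcdh9 (23.8), Mcm2 (25.1) and Ptn (24.2) were highest by level in G2, H3 and F4, which were not left out for them either.

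Called in both library batches separately were 7 genes: Tnc, Cst3, Dusp6, Mcm2, Rcbtb2, mt-Co1 and mt-Tf. Mcm2 had a CV2 of 2.61 in batch 1 and 3.08 in batch 2, with at most 8 molecules in a cell. Rcbtb2 had 25 molecules in 13 NSC. It was not called in a refit without E6, the cell with most of its molecules (adjusted p 0.183). In that refit the noise term was 1.39 and 31 genes were called in all. With the noise fit kept, Rcbtb2 was called without E6 (adjusted p 0.00132). Sites counted for mt-Tf lay along the whole mitochondrial genome, so the names of mitochondrial genes are uncertain.

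**Figure D4:**
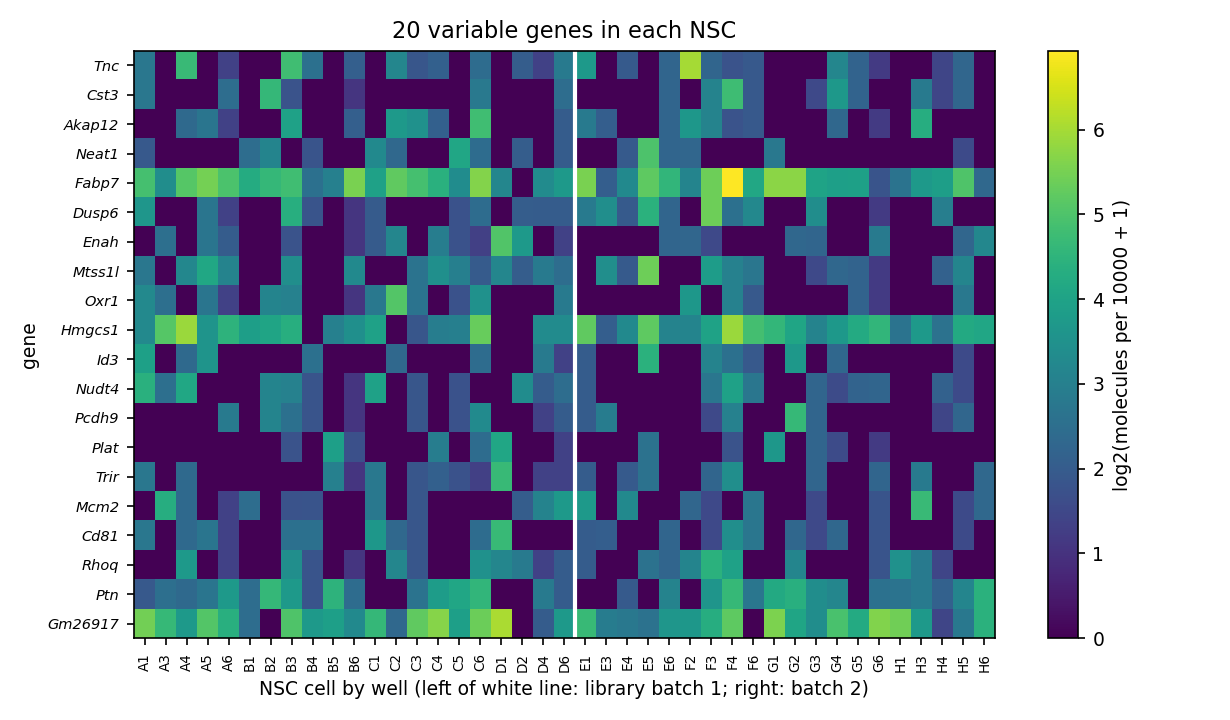
Level of the 20 named variable genes (rows) in each NSC (columns, by well), as log2 of molecules per 10000 plus 1 by colour, with batch 1 left and batch 2 right of the white line. Fabp7 and Hmgcs1 are seen in 40 and 37 cells, whereas Tnc, Cst3 and Neat1 are not seen in 16, 24 and 25 cells.

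Set against the 10.7% called over all genes, called members were spread unevenly over the lists. The lists are small and were chosen with earlier results of these data known. No test compared them, so their counts are descriptions. Called were 6 of 15 tested genes of neural stem cells and radial glia, 4 of 8 matrix and secreted genes of glia, 2 of 4 astrocyte genes and 10 of 14 mitochondrial genes. Tnc counts in the neural stem cell and matrix lists, and Cst3 in the matrix and astrocyte lists. In all 4 other noise fits and without the cell with most of their molecules, 2, 2, 2 and 3 members were still called. None of 49 ribosomal proteins was called. None of 9 heat shock genes or the 1 pluripotency gene tested was called, and of 11 cytoskeleton genes only Marcks. These last 3 lists have too few tested genes to be told apart from 10.7%. The ratio of CV2 to technical CV2 had a median of 1.22 over all 1157 genes, 2.11 for neural stem cell genes, 2.08 for matrix genes, 1.19 for ribosomal proteins and 1.16 for heat shock genes. Higher medians were not particular to the stem cell and matrix lists. They were 2.80 for astrocyte genes, 2.95 for Notch and BMP targets, 2.46 for neuronal, 2.22 for S-phase and 2.16 for oligodendrocyte lineage genes. The last 4 of these lists had only 1 or 2 tested genes. Cytoskeleton genes stood at 1.65.

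Several called members rested on 1 cell. For the neural stem cell list, the cell with most molecules of a gene was left out. Ttyh1 and Nfia were then not called without F4 and C6 (adjusted p 0.88 and 0.947), while Nfib (0.0402) and Cd24a (0.0136) were. Sparc, of the matrix list, gave 0.153 without C6. Of the markers, Olig2 was called at an adjusted p of 0.0558 and in none of the 4 other noise fits, and Olig1, Vim and Nes had adjusted p of 0.344, 0.181 and 1 and were not called. Single calls in other lists were Map2 (1 without C6), Ccnd3 (0.0122 without the cell with most of its molecules) and Marcks (0.0722).

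Mitochondrial genes had the highest median ratio of the lists, 5.44. Their share was 1.12% to 13.6% of a cell's molecules, with a level of 609 in batch 1 and 397 in batch 2. Called were mt-Atp6, mt-Atp8, mt-Co1, mt-Co3, mt-Nd1, mt-Nd5, mt-Tf, mt-Tg, mt-Tl1 and mt-Tm, of which mt-Atp6 and mt-Co3 had 13 of 22 and 20 of 31 molecules in 1 cell. With these genes left out of the fit 129 genes were called, 110 of them among the 124.

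Between the library batches, 14.0% of all tested genes and 25.8% of called genes differed in level by over 2-fold, with 24 of the called genes higher in batch 1 and 8 in batch 2. Of the 16 genes above, Oxr1 was over 2-fold higher in batch 1 and Dusp6 in batch 2. By list, batch 1 was higher for S-phase genes (27.3 against 18.7), oligodendrocyte lineage genes (15.9 against 11.0), G1 genes (26.7 against 18.0), heat shock genes (76.8 against 64.4) and neuronal genes (7.90 against 3.19), mostly Map2. Batch 2 was higher for astrocyte genes (31.5 against 22.2), EGF and FGF response genes (39.7 against 32.6) and ribosomal protein genes (1303 against 1132). Each batch is 1 library of the same culture, and no test was made.

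Levels of some genes and lists moved together across cells. Correlations below are Spearman's rho over the 41 NSC, which share culture, sort and libraries, and are given as descriptions with the values in batch 1 and batch 2 in that order. Fabp7 went with the summed astrocyte genes (0.69, 0.55 and 0.79) and with EGF and FGF response genes (0.60, 0.40 and 0.77). These lists hold neither Fabp7 nor a gene of each other. Fabp7 was less closely tied to Olig1 plus Olig2 (0.40, 0.25 and 0.55). With total molecules per cell held fixed, partial rho was 0.68, 0.62 and 0.41 for these pairs. The correlation of Fabp7 with ribosomal protein genes was -0.37, and -0.15 with levels set by size factors.

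Nearest genes were listed only if rho was also above 0.3 in each batch, here and for the levels below. Their batch values are therefore selected. Those nearest to Fabp7 were Aldoc (0.55, 0.48 and 0.67) and Gpm6b, a proteolipid of the cell membrane (0.54, 0.41 and 0.74). Hmgcs1 (0.50, 0.47 and 0.56), Marcks (0.50, 0.35 and 0.66) and Glo1, a glyoxalase (0.48, 0.46 and 0.48), followed. Over 470 genes of normalized mean at least 1, rho with Fabp7 had a median of -0.02 and was between -0.32 and 0.30 for the central 90% of genes. In all, 10 genes were above 0.3 in both batches. Gpm6b had 59 molecules in NSC, none in ESC-2i and 0.0441 per 10000 in ESC-FCS.

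The cell of well F4 was at one end of this range. It had 121 per 10000 for Fabp7, where the next cell had 52.3. Cst3 stood at 26.6 (others up to 23.3), and so did Gstm1, a glutathione transferase, where the others reached 10.2. Its Aldoc level, 33.9, was just below the highest other cell at 35.8, and Olig1, at 2.42, was below the median of the others. Without the 2 cells farthest from the median of Fabp7, rho was 0.64 with astrocyte genes and 0.57 with EGF and FGF response genes.

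The S-phase list and Olig1 plus Olig2 had a negative rho (-0.41, -0.51 and -0.28). Of the 7 cells above 40 for S-phase genes, Olig1 and Olig2 were not seen in 3, D6, A3 and H3, and were at 5.83 to 12.2 in the other 4. D6, A3 and H3 had 6600, 2101 and 1593 molecules on genes. Below 40, Olig1 and Olig2 were also not seen in B4, C1, F2 and H1. With the 2 farthest cells left out rho was -0.33. By the other cycling measure the groups were alike. Olig1 plus Olig2 was at 0 to 20.0 (median 9.52) in the 10 NSC with Mki67 or Top2a. In the other 31 it was at 0 to 37.2 (median 9.73). S-phase genes and Fabp7 had a weak rho of -0.25.

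S-phase and G2 and mitosis genes had a rho of 0.30 (0.41 and 0.23), and of 0.18 without H2afz. The genes nearest to the S-phase list were its member Mcm2 against the rest of the list (0.63, 0.62 and 0.65), Ran, a GTPase of nuclear transport (0.48, 0.37 and 0.56), Tubb5 (0.44), Serbp1 (0.35) and Pkm (0.35). Nearest to the G2 and mitosis list were Rps14 (0.50), Rpn2 (0.50), Ndufa12 (0.48), Oaz1 (0.47) and Mcm2 (0.44). Over all genes compared with these lists the central 90% of rho ran from -0.25 to 0.28 and from -0.21 to 0.34.

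For Olig1 plus Olig2 the nearest genes were Snrpd2 (0.48), Gpx1 (0.42), Eif3h (0.36), Sf3b2 (0.35) and Reep3 (0.33), housekeeping genes for the most part. Across genes, rho with Olig1 plus Olig2 in batch 1 and in batch 2 had a correlation of -0.02. The same correlation was 0.19 for Fabp7, 0.14 for S-phase genes and 0.17 for G2 and mitosis genes.

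Among the 190 pairs of the 20 named variable genes rho had a median of 0.10 and a range of -0.36 to 0.54. The highest pair was Tnc with Akap12 (0.54, 0.58 and 0.47), and the level of Tnc had a rho of 0.42 with total molecules of a cell. In 8 pairs rho was above 0.3 over all cells and in each batch, among them Fabp7 with Hmgcs1, Cst3 with Fabp7 (0.33) and Id3 with Cd81 (0.45). The lowest pair was Plat with Mcm2 (-0.36, -0.38 and -0.33).

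**Figure D5:**
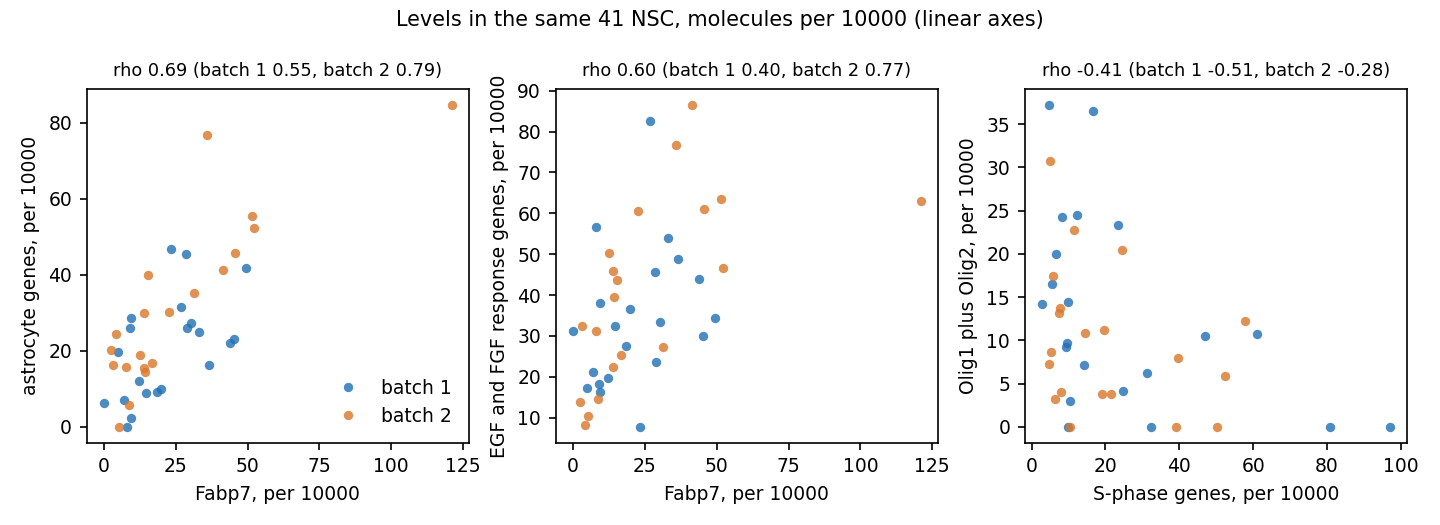
Levels in the same 41 NSC, in molecules per 10000 on linear axes, of Fabp7 against astrocyte genes, Fabp7 against EGF and FGF response genes, and S-phase genes against Olig1 plus Olig2, with batch 1 in blue and batch 2 in orange and rho above each panel. The cell with most Fabp7 lies at 121, and the cells highest for S-phase genes, at 97.0 and 80.9, lie at 0 for Olig1 plus Olig2.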

How the data were processed

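Molecules were counted by BATSeq in 41 kept NSC, 33 ESC-2i and 33 ESC-FCS. The deposited counts are UMIs per gene or site and cell, without normalization. Per the study's methods, the authors trimmed terminal A stretches, aligned reads with GSNAP to GRCm38 and ERCC sequences, removed reads with several alignments or signs of internal priming, merged UMIs that differed at 1 base and merged positions within 12 nt. The labels' processing notes name HTSeq and R 3.0.2. Removal of reads with several alignments can lower genes with near-identical copies, such as Fabp5, which was not tested. Mitochondrial reads are stated to be removed, but mitochondrial genes are in the table and were kept.

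From these counts, molecules per gene were taken from the table of genes, and spike-ins and sites from the table of sites without antisense sites. Gene names are from GENCODE M21 (19321 of 19736 IDs matched). Levels are pooled molecules per 10000 with exact Poisson intervals, shares have exact Clopper-Pearson intervals at 95%, and both cover counting error only. Variable genes were called by the test of Brennecke and colleagues, rewritten in Python and tested on simulated counts with 200 variable genes. Spike-ins entered the fit when their mean reached the 0.95 quantile of those with CV2 above 0.3. Depth per cell, 1234 to 9037 molecules in NSC, limits precision.

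Members and gene lists were chosen with earlier results of these data known. Named genes are the 5 markers, the 5 members of each list with most NSC molecules, the 10 genes with most molecules outside mitochondrial and ribosomal protein genes, the 20 called genes of lowest adjusted p outside the mitochondrial genome that were still called without the cell with most of their molecules, genes called in both batches, called members of lists with at most 5 calls, and the 5 genes nearest to each of 4 levels. Nearest genes also had to have rho above 0.3 in each batch. The alternatives were other margins, size factors, cell and mean limits, spike-in sets and single batches or cells. Antisense spike-ins, the Poisson limit, spike-ins of mean at least 0.5, variance within batches, a fixed noise fit and the list without H2afz were chosen after seeing the data. Isoform choice was not analysed here. Scripts ran in Python 3.11.15, using pandas 2.3.3, numpy 2.4.6 and scipy 1.17.1, and plots were drawn with matplotlib 3.10.9.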

Additional observations from a re-analysis of the deposited data

Results flagged for a closer look

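The 7 NSC that were not kept held 2790 molecules on genes in all, 19 to 961 per cell. Among these were 4 molecules of Fabp7 and 7 of all 5 markers together (2 of Olig2, 1 of Olig1 and none of Vim or Nes), above the 3 counts that a count of 0 allows. The level of the 5 markers there, 25.1 per 10000 (10.1 to 51.7), has an interval that includes the 47.4 of the kept cells. These cells enter no comparison above.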

How the results depend on the processing

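The number of variable genes in NSC (124) moved most with the settings. It was 342 with a margin of 0, 51 with a margin of 0.5, 51 with size factors from total molecules, 27 in cells with at least 2000 molecules, 80 with all spike-in species, 43 of 471 with a normalized mean above 1, 1114 of 12484 without a limit on the mean and 33 in batch 2 alone. Some alternatives were chosen after seeing the data. With antisense spike-in molecules counted the number was 25, and with the noise fitted on spike-ins of mean at least 0.5 it was 46. At the same noise fit, without the cell with most of each gene's molecules, it was 78. Leaving out 1 cell at a time gave 20 to 162, with 10 of 41 refits at 20 to 50 and 31 at 87 to 162. Those 10 left out G2, H4, F6, C3, B4, C4, E6, B1, B5 or A4, and in each the fitted noise term was at least 1.28. Of the 20 named genes, 13 were called with antisense spike-ins counted, 16 with size factors from total molecules, 14 of 20 in batch 1 and 9 of 19 in batch 2. Levels moved beyond counting error in the batches alone for astrocyte genes (22.2 and 31.5), oligodendrocyte lineage genes (15.9 and 11.0), S-phase genes (27.3 and 18.7), neuronal genes (7.90 and 3.19) and Olig1 (8.02 and 4.02), and likewise for the G1, EGF and FGF response, heat shock, mitochondrial and ribosomal protein lists. Thinning to 1000 molecules lowered the shares of cells with Fabp7, Vim, Olig1, Olig2 and Nes to 79.8%, 51.0%, 40.8%, 37.2% and 32.5%. The correlation of Fabp7 with EGF and FGF response genes was 0.77 in batch 2 alone, and among Fabp7, Olig1 plus Olig2 and the S-phase, G2 and mitosis, astrocyte and EGF and FGF response lists batch 1 alone turned the sign for astrocyte genes with S-phase genes (-0.11 to 0.14) and with Olig1 plus Olig2 (0.21 to -0.05), and gave 0 for G2 and mitosis genes with Fabp7. Except by construction, the cause was not tested. Depth limits genes below about 0.5 molecules per cell. No paired analysis was possible because replicate numbers only order the cells of a culture and no result comes from a test between groups.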

Other observations

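The cell of well C6 had the lowest share of ribosomal protein molecules among the 41 NSC, 5.61% against a median of 11.8%. The cell of well F4 held the highest count of 11 called genes (8.87% of called and 1.82% of tested genes), among them Cst3, Fabp7, Ttyh1 and Gstm1, named after their values were seen. Gstm1 was not called without F4 (adjusted p 0.702).

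Of the 162588 molecules of NSC that are not spike-ins, 87414 (53.8%) were counted at sites at most 10 nt from an annotated end of a transcript.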
